A study of Mus musculus with 3 samples.

Results

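Transcript-rich elongating spermatids (ESs) were the testicular cells in which the protamine genes Prm1 and Prm2 and the transition protein genes Tnp1 and Tnp2 together held at least 20% of the transcripts. They were chosen from the barcodes of the 3 libraries with at least 4000 unique molecular identifiers (UMIs, each counting 1 captured transcript), more than 500 genes and less than 10% mitochondrially encoded UMIs. Of 6424 such cells, 1356 passed, and 1353 of these came from WT.

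Testicular cells of C57BL/6 mice, 8 weeks old by the sample labels, were run on 10x Genomics Chromium droplets with 7000 cells loaded per library. WT mice carry the gene of gonadotropin-regulated testicular RNA helicase (GRTH, Ddx25), KO mice lack it, and KI mice carry the human gene with an Arg to His missense mutation that abolishes the phosphorylated form of the protein. There was 1 library per genotype (WT, KO and KI). The labels give 1 mouse for each, whereas the methods of the study also speak of testes pooled from a pair of mice and of a wider age range. Nothing compared between cells here has a replicate, so no test was made. Every interval is a 95% interval that covers counting error only (exact Poisson or binomial), with 1 exception. That of the median number of genes comes from the ranks of the cells and treats the cells of 1 library as separate draws.

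WT held 82973909 UMIs in all barcodes together, KO 91388296 and KI 73150373. Over the filtered cells Ddx25 gave 6766 UMIs in WT (135 CPM, UMIs of the gene scaled to 1000000 UMIs), 13 in KO (0.279 CPM) and 4047 in KI (96.7 CPM). The reads were aligned to the mouse genome while KI mice carry the human gene, so the KI level may not be a like measure. The effect of this was not tested. At most 2 barcodes were shared between any 2 libraries after filtering, and no barcode of a transcript-rich ES of one library was a transcript-rich ES of another.

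During spermiogenesis a round spermatid (RS) elongates, most of its histones are exchanged for transition proteins, and these are in turn exchanged for protamines, the small arginine-rich proteins that pack sperm DNA. Transcription stops as the chromatin condenses, and the ES then relies on mRNAs that were made earlier and stored. Prm1 and Prm2 encode the protamines, and Tnp1 and Tnp2 the transition proteins.

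The choice rests on these 4 genes, so the stretch of 140 bases before the start site of each is shown (RefSeq, GRCm38.p6, in the direction of the gene). Prm1, at chr16:10796824-10796963, Prm2, at chr16:10792106-10792245, and Tnp2, at chr16:10788656-10788795, are close neighbours on chromosome 16, all on its minus strand, and Tnp1, at chr1:73015900-73016039, lies on the minus strand of chromosome 1. Capitals mark a match on either strand to TGANGTCA, an element of the kind bound by the CREM family of factors and here allowed any base at N, or to the TATA element TATAAA.
Prm1: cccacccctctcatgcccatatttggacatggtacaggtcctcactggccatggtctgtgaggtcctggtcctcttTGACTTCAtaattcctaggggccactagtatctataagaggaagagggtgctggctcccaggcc
Prm2: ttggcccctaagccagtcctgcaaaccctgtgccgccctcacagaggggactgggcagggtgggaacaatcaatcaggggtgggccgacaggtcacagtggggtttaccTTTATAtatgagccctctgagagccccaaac
Tnp1: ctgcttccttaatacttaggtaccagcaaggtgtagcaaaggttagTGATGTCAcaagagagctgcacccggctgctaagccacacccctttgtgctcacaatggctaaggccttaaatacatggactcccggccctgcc
Tnp2: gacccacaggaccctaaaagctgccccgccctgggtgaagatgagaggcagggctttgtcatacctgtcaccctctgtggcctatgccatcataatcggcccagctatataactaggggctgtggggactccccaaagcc

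The TGANGTCA match began 64 bases before the start site in Prm1, on the opposite strand, and 94 bases before it in Tnp1, on the strand of the gene. The TATAAA match of Prm2 began 31 bases before its start, on the opposite strand, and the Tnp2 window held neither. Only exact matches were counted. Related forms, such as tatataa in the Tnp2 window and tataag in that of Prm1, were not. Over all 32851 promoters of the same length, 5.55% held TGANGTCA and 7.21% held TATAAA. The strict form TGACGTCA, which is one of the sequences that TGANGTCA covers, was in 1.33% of them and in none of the 4. Of the 20 genes with most UMIs beside the 4, 18 had promoters in the table, and 5 of their 30 promoters (16.7%) held TGANGTCA and none TATAAA.

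WT held nearly all of the cells. In WT 1353 of 3294 filtered cells were transcript-rich ESs (41.1%, 39.4 to 42.8). In KO none of 2058 was, a count that allows a share of up to 0.146% by a floor of 3 counts and up to 0.179% by the exact interval. In KI 3 of 1072 were (0.280%, 0.0577 to 0.816). The cell with the highest share of the 4 genes had 12.9% in KO, 25.6% in KI and 50.7% in WT. The group in KO and KI stayed under 50 cells, so its expression was not compared between genotypes. These shares describe cells that passed a floor of 4000 UMIs, and a barcode that lost RNA would not be counted.

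The limit of 20% did not fall in a gap between groups of WT cells. The 3 transcript-rich ESs nearest to it had 20.03%, 20.04% and 20.04%, and the 3 cells just outside had 19.998%, 19.95% and 19.92%. There were 70 cells within 2 percentage points above the limit and 43 within 2 points below.

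**Figure D1:**
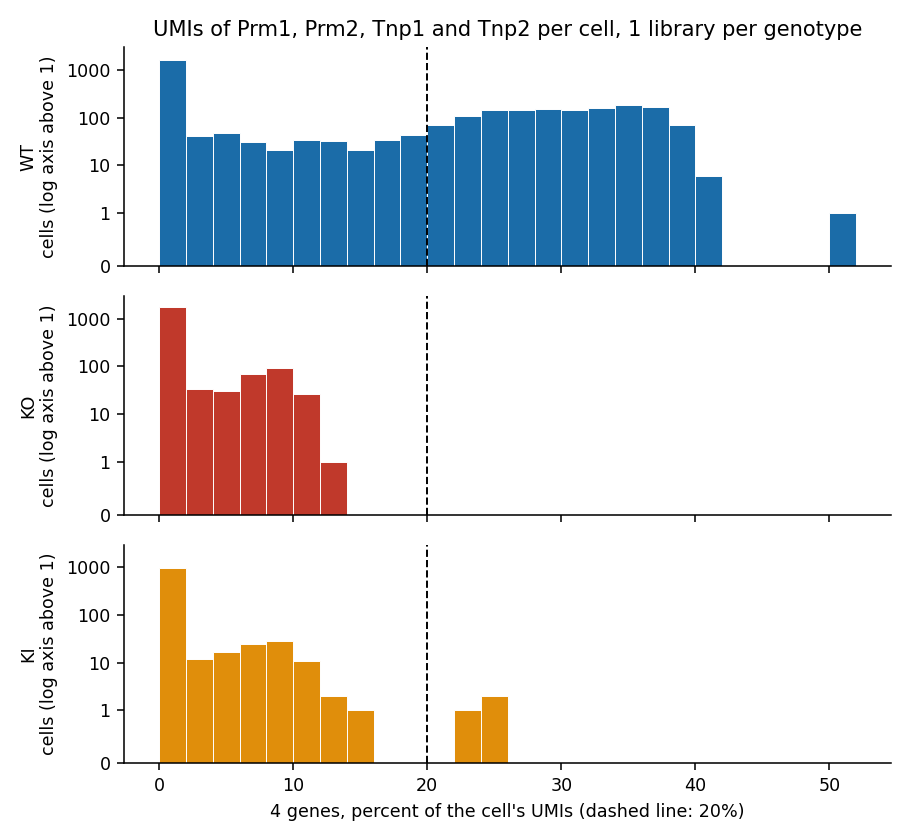
Number of filtered cells (vertical axis, logarithmic above 1) by the share of their UMIs that came from Prm1, Prm2, Tnp1 and Tnp2 (horizontal axis, percent, in steps of 2), for the WT, KO and KI libraries from top to bottom. WT cells continue past the dashed line at 20% up to 50.7%, whereas KO ends at 12.9% and KI has 3 cells beyond the line.

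The 3 KI cells held 5364, 4255 and 51075 UMIs, with 25.6%, 24.8% and 22.4% from the 4 genes. Prm1 made up 56.3%, 55.6% and 55.3% of their protamine UMIs. Tnp1 and Tnp2 made up 31.5%, 28.4% and 31.0% of their UMIs from the 4 genes. Ddx25 gave 0, 0 and 3 UMIs in these cells, and it gave 227 UMIs over all 1353 WT transcript-rich ESs (16.4 CPM).

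RNA outside cells carried the 4 genes too. In barcodes of 1 to 100 UMIs, taken as empty droplets, their share was 5.70% for WT, 2.57% for KO and 2.48% for KI. The part of such RNA in the low values given here for single genes was not tested.

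The WT transcript-rich ESs held 13872665 UMIs, 27.6% of those in filtered WT cells. A cell had a median of 8096 UMIs (4004 to 107033) and 1635 genes. Beside them were set the 238 WT cells with 5% to under 20% of UMIs from the 4 genes, called neighbours here, with a median of 13457 UMIs and 3600 genes. With each cell thinned to 4000 UMIs, a depth all of these cells reached, the median was 1092 genes in transcript-rich ESs and 1778 in neighbours. Part of this gap is set by the rule, since the 4 genes take up at least 20% of the UMIs of a transcript-rich ES.

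Mitochondrially encoded transcripts were scarce. No such UMI was seen in 58.6% of the cells, against 35.7% of the neighbours. These shares of cells were not matched for depth, with medians of 8096 and 13457 UMIs. Mitochondrially encoded transcripts made up 0.0639% of UMIs against 0.281%, with the UMIs of the 4 genes counted in both. The pooled values rest on few cells, since the median cell had 0% in transcript-rich ESs and 0.00684% in neighbours, and the 95th percentiles were 0.141% and 2.27%. All 10 of the mitochondrially encoded genes that could be compared with neighbours were at least 2-fold lower, as were 40.3% of all genes so compared (median log2 ratio -1.74 for the 10).

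By the rule the 4 genes were high, and their levels are given as a description. Prm1 gave 1740894 UMIs (12.5% of the UMIs of the cells), Prm2 1352477 (9.75%), Tnp2 611858 (4.41%) and Tnp1 502484 (3.62%). A cell held on average 1287 UMIs of Prm1, 1000 of Prm2, 452 of Tnp2 and 371 of Tnp1. All other genes are given below as CPM of the UMIs that remain without these 4, so that the rule does not lower them by itself. A UMI counts the 3' end of a transcript, and levels of different genes are compared as molecules, with no correction for gene length.

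The cells differed among themselves in which of the 4 genes they held. The share of Tnp1 and Tnp2 in the UMIs of the 4 genes ran from 0.309% to 40.5%, with a large group of cells near 35% and another near 0%. Of the 1353 cells, 258 lay between 34% and 36% and 233 under 2%, against 18 between 14% and 16%. For description the cells were put in 5 classes after this spread had been seen: 659 cells at 30% or more, 214 at 20 to 30%, 164 at 5 to 20%, 191 at 1 to 5% and 125 under 1%. The classes are slices of a continuous measure and not types of cell.

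Prm1 and Prm2 parted along these classes. Prm1 held 12.04%, 15.9%, 17.7%, 10.2% and 3.42% of all UMIs from the class richest in Tnp to the poorest, and Prm2 held 7.29%, 10.1%, 12.8%, 16.6% and 20.7%. There were 1.65 Prm1 UMIs per Prm2 UMI in the richest class, 1.58 and 1.38 in the next 2, 0.612 in the class at 1 to 5% and 0.165 in the poorest. In the poorest class Prm2 was thus the leading protamine transcript.

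Per cell, Prm2 changed little between the classes, with means of 942, 1010, 1006, 1029 and 1230 UMIs. The rule bears on this, since a cell with few Tnp and Prm1 UMIs can reach 20% only through Prm2. Prm1 went from 1555 UMIs per cell in the richest class through 1598, 1390 and 631 to 203 in the poorest. Tnp1 went from 552 through 489, 194 and 11.9 to 2.39 UMIs per cell, and Tnp2 from 742 through 427, 156 and 26.7 to 8.04. Between the transition proteins the balance also moved, as Tnp1 made up 42.6% of Tnp UMIs in the richest class, 55.4% at 5 to 20% and 22.9% in the poorest.

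Over the 1353 cells the Tnp share and the share of Prm1 among protamine UMIs had a Pearson correlation of 0.793 (Spearman 0.699). Both are ratios within the same 4 genes of the same cells of 1 library, so this value is a description. The relation bent rather than ran straight. Median Prm1 shares were 62.4%, 62.2% and 58.7% in the 3 classes above 5% Tnp, and 38.5% and 9.41% in the 2 below.

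The same ratios are given for WT barcodes of 500 to under 4000 UMIs that passed the other limits. They were chosen by the same limit of 20% on the same 4 genes and come from the same library, so their values are a further description and no independent support. There were 726 of them in WT and none in KO or KI. By the same classes they numbered 114, 44, 47, 344 and 177, so 521 of 726 had a Tnp share under 5%, against 316 of the 1353 transcript-rich ESs. Their median Prm1 share was 62.5%, 62.3% and 57.9% above 5% Tnp, and 6.76% and 5.46% below.

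**Figure D2:**
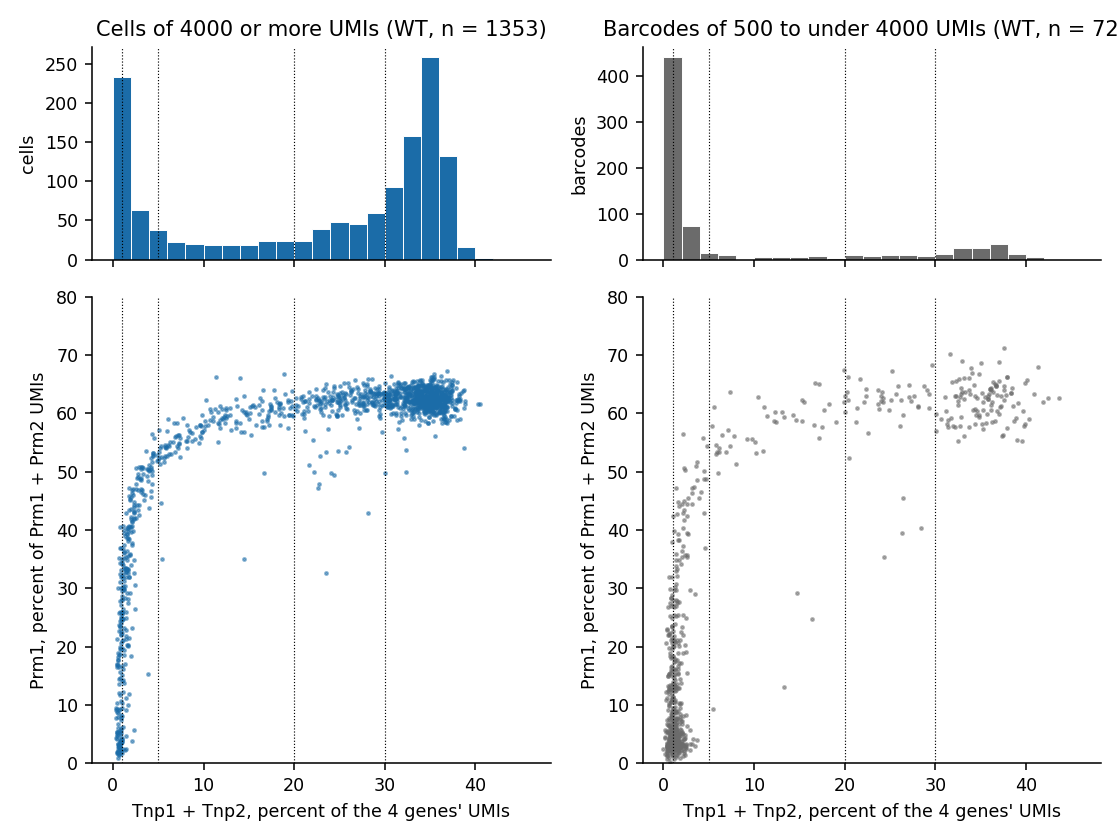
Top, number of WT cells (left, 1353 cells of 4000 or more UMIs) or barcodes (right, 726 of 500 to under 4000 UMIs) by the share of Tnp1 and Tnp2 in the UMIs of the 4 genes, in percent. Bottom, Prm1 as a percent of Prm1 and Prm2 UMIs against that share, with 1 point per cell and dotted lines at the class limits of 1%, 5%, 20% and 30%. In both panels Prm1 stays near 60% over most of the range and lies between there and 0% where the Tnp share is under 5%.

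Cells poorer in Tnp also held fewer transcripts. The median was 10459 UMIs in the richest class, then 7990, 6672 and 4992, and 5237 in the poorest. At 4000 UMIs the median number of genes was 1224, 1043, 978, 996 and 931. The Tnp share and the logarithm of the UMIs of a cell had a Pearson correlation of 0.485 over the 1353 cells. The floor of 4000 UMIs cuts into the poorer classes most, so their medians lie above those of all such cells.

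**Figure D3:**
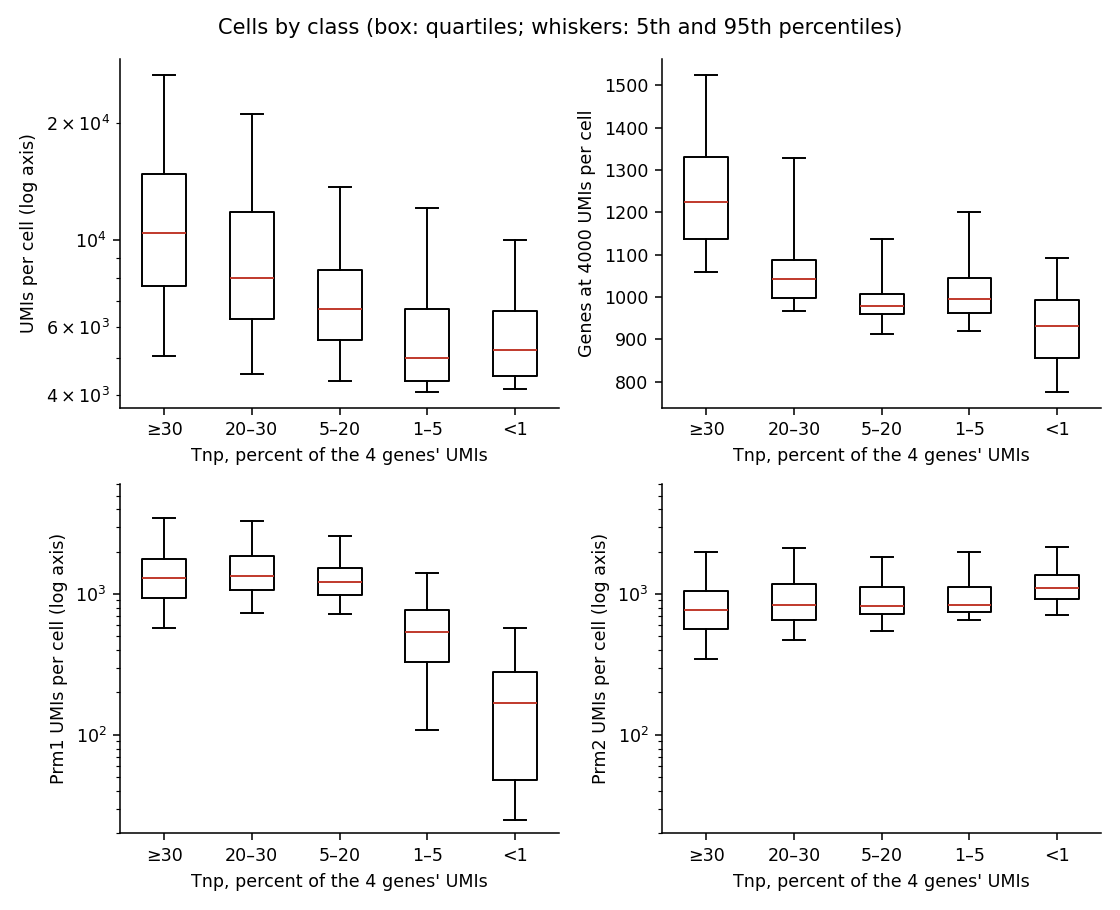
UMIs per cell, genes at 4000 UMIs, Prm1 UMIs per cell and Prm2 UMIs per cell in the 5 classes of WT transcript-rich ESs by Tnp share (659, 214, 164, 191 and 125 cells from left to right). Boxes are quartiles with the median in red, whiskers are the 5th and 95th percentiles of cells, and the axes of UMIs are logarithmic. Prm1 is lower in the 2 poorest classes and Prm2 is not, where the rule admits a cell poor in the other 3 genes only if its Prm2 is high.

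The same order was found without the 4 genes. The leading principal component of the other genes over the 1353 cells, with each thinned to 2000 such UMIs, held 23.7% of the variance of the 1000 genes used and had a Pearson correlation of 0.916 with the Tnp share. Its correlation with the logarithm of UMIs was 0.526. The second component held 4.82% and followed the share of the 4 genes (0.831). These are descriptions of cells of 1 library.

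The genes of most UMIs beside the 4 were Dbil5 (an acyl-CoA-binding protein of spermatids, 11926 CPM), Gm5617 (10352 CPM), Gstm5 (a glutathione transferase, 9209 CPM), Smcp (the cysteine-rich protein of the mitochondrial capsule, 8836 CPM), Prm3 (7658 CPM) and Meig1 (7593 CPM). The 20 leading genes held 9.04% of the cells' UMIs. Among them were the selenoprotein Gpx4 (5667 CPM), the fatty acid-binding protein Fabp9 (4940 CPM), the outer dense fibre gene Odf2 (4829 CPM), the initiation factor Eif1 (6224 CPM) and the ribosomal protein genes Rps20 (5272 CPM) and Rpl41 (4635 CPM). The RNA was concentrated: 226 genes made up 50% of the UMIs beside the 4, against 515 genes in neighbours. At least 1 UMI was seen for 19185 genes.

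Against the neighbours, 4702 genes with a mean of at least 20 CPM were compared as log2 ratios with 1 CPM added. Of these 297 (6.32%) were at least 2-fold higher in transcript-rich ESs and 1897 (40.3%) at least 2-fold lower. A gene under 20 CPM in one set of cells entered only through the other set, so this minimum fixed its direction. That bears on the counts of lower genes in the lists that follow. At a minimum of 100 CPM, 200 genes were higher and 445 lower. The median gene of the 4702 had a log2 ratio of -0.62, and relative to it 978 genes (20.8%) were higher and 1157 (24.6%) lower. This median depends on the setting. It was -0.05 at a minimum of 100 CPM and -0.92 against WT cells at 2% to under 10%. The neighbours included 43 cells with a Tnp share under 5%. Without those cells 321 genes were higher and 1902 lower. Large cells weigh more in summed UMIs, and 36 of the 238 neighbours and 32 of the 1353 transcript-rich ESs had over 30000 UMIs. With cells above 30000 UMIs left out, 260 genes were higher and 1988 lower. The same cells are sorted here by genes that go with the others, so these ratios describe the 2 sets of cells and are not a test.

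The ratios are of shares of RNA, and the totals behind them differed. UMIs beside the 4 genes averaged 7143 per transcript-rich ES and 16606 per neighbour. As mean UMIs per cell, with 0.01 added, 8 of the 4702 genes (0.17%) were at least 2-fold higher in transcript-rich ESs and 3477 (73.9%) at least 2-fold lower. Of the 297 genes 2-fold higher in CPM, 163 were higher per cell by any amount and 8 by 2-fold. Apoe, for lipid transport, was 2-fold higher on both scales, at 2.00 against 0.849 UMIs per cell. Per cell, Smcp stood at 63.1 against 64.3 UMIs, Prm3 at 54.7 against 63.4, Eif1 at 44.5 against 48.6, H2al2a at 23.3 against 22.7, Akap4 at 14.01 against 12.7 and Tssk6 at 20.3 against 17.2. In the paragraphs that follow, higher and lower than in neighbours refer to CPM.

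Genes that mark ESs were high in the cells beside the 4 of the rule. Of 11 such genes, 7 were at least 2-fold higher than in neighbours and none 2-fold lower, against 6.32% and 40.3% of all genes, with a median log2 ratio of 1.09. The serine kinase Tssk6 stood at 2849 against 1038 CPM (log2 1.46, 1.41 to 1.50), and the fibrous sheath scaffold Akap4 at 1962 against 763 (1.36, 1.31 to 1.42). The exception was Hils1, a linker histone of spermatids, at 2036 against 2441 CPM (-0.26).

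Genes that mark RSs were low. All but 1 of the 10 compared were 2-fold lower, against 40.3% of all genes, with a median of -2.94, among them the acrosomal genes Acrv1 (34.7 against 463 CPM, log2 -3.70) and Spaca1 (41.2 against 507 CPM, -3.59). Tssk1, the exception, stood at 453 against 666 CPM. Of 9 spermatocyte genes 8 were 2-fold lower, against the same 40.3%. Nme8, a thioredoxin-domain gene also used in sperm tails, was the exception at 374 against 190 CPM. Sycp3, of the synaptonemal complex, was at 13.8 CPM. That is under the minimum for a comparison, and so was each of the 8 lower genes. They entered only through neighbours and their direction was fixed, so their count is no result about spermatocyte genes. The same holds for any listed gene under the minimum in transcript-rich ESs.

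Genes of testicular cells that are not germ cells were near 0. The summed level was 32.9 CPM for 8 Sertoli cell genes (23.0 CPM in neighbours), 10.6 CPM for 5 Leydig cell genes, 3.83 CPM for 6 stromal genes and 0.414 CPM for 4 haemoglobin genes. Nearly all the Leydig cell UMIs, 96 of 102, lay in a single cell. Of 8 macrophage genes C1qb held 431 of the 444 UMIs, while C1qa, Cd163, Cd74 and Lyz2 were at 0. Of 3 endothelial genes Vwf gave 158 UMIs and Pecam1 and Cdh5 none. Spermatogonial genes summed to 21.9 CPM over 8 genes. Apart from C1qb and Vwf, the defining genes of these cell types were at or near 0, and genes of ESs were high.

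**Figure D4:**
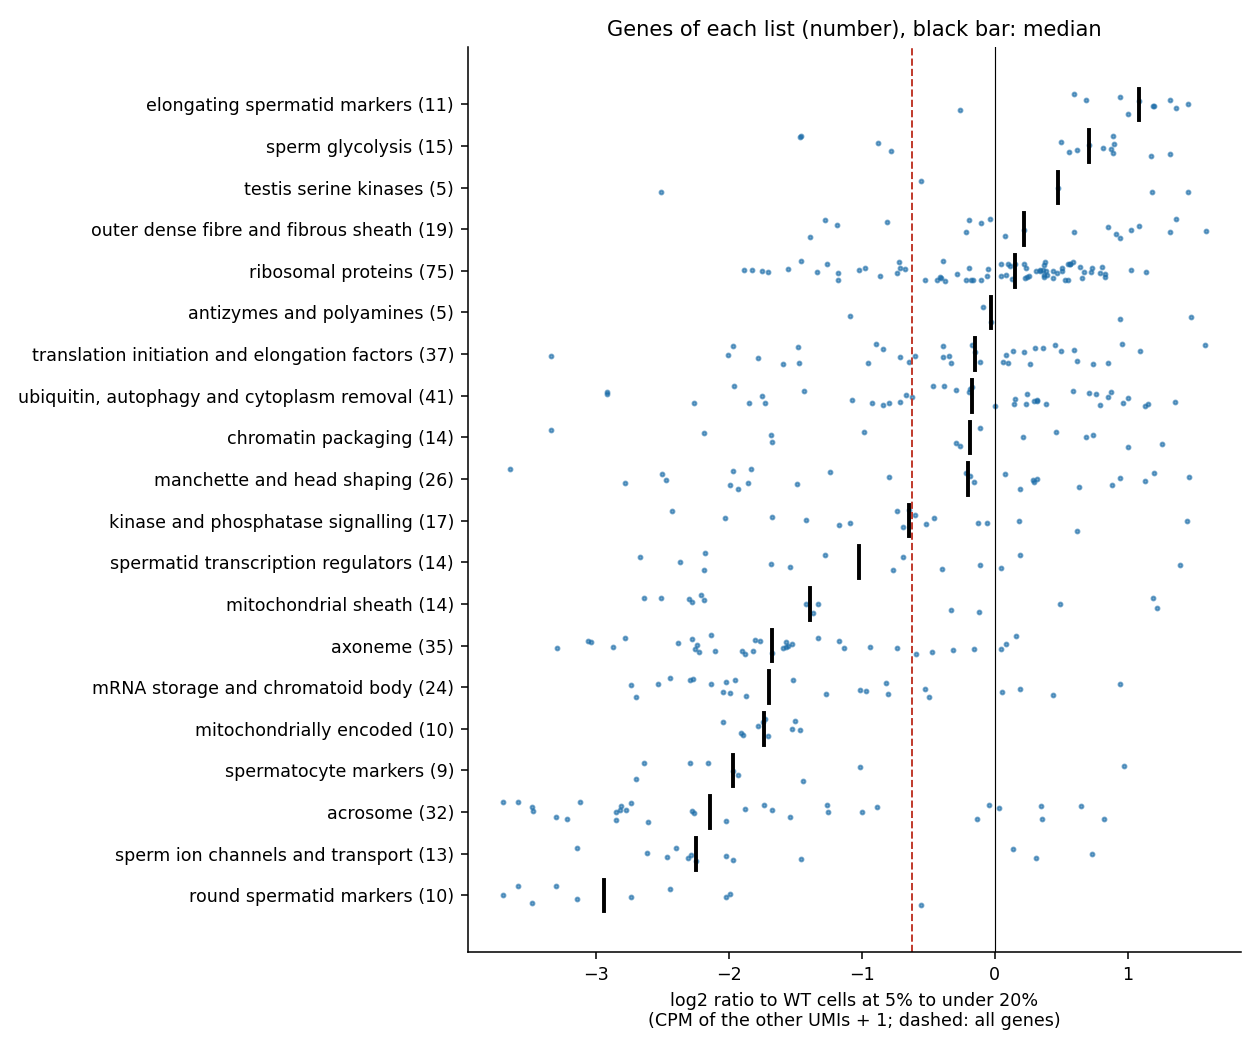
Log2 ratio of each gene (points) in WT transcript-rich ESs against WT cells with 5% to under 20% of UMIs from the 4 genes, for each list with at least 5 genes compared (number in brackets), with the list median as a black bar. The dashed line marks the median of all 4702 genes, -0.62. Lists run from ES markers, with a median of 1.09, down to RS markers, with a median of -2.94.

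Genes listed under chromatin packaging split in several ways. Being on the list, as Prm3 is, does not show that a gene's product packs DNA. Of 14 compared with neighbours, 2 were 2-fold higher and 4 lower, against 6.32% and 40.3% of all genes. The 2 were Prm3 (7658 against 3815 CPM) and H2al2a, a histone H2A variant of condensing spermatids (3267 against 1367 CPM). The genes of the replacement histone H3.3, H3f3a (322 against 1034 CPM) and H3f3b (140 against 1426 CPM), were among those lower, with Hmgb2 and the bromodomain gene Brdt (log2 -2.18 and -1.67). Hmgb2 and Brdt were under the minimum for a comparison in transcript-rich ESs, which fixed their direction.

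Within the transcript-rich ESs some genes of this list differed by Tnp share and others did not reach 2-fold. For this, genes were compared between the 659 cells at 30% or more and the 316 under 5%. Over 3503 genes 1363 (38.9%) were at least 2-fold higher in the Tnp-rich cells and 299 (8.54%) at least 2-fold lower, with a median log2 ratio of 0.53, and relative to this median gene 959 (27.4%) were higher and 799 (22.8%) lower. Here too a gene under 20 CPM in one set of cells entered only through the other set, which fixed its direction. That bears on the counts of genes higher in Tnp-rich cells, here and in the lists that follow. At a minimum of 100 CPM, 493 genes were higher and 200 lower. Of 13 genes of the chromatin packaging list 7 were 2-fold higher in the Tnp-rich cells and none 2-fold lower. Hils1 stood at 2961, 927, 346, 213 and 183 CPM from the richest class to the poorest. H2al3, another histone H2A variant, stood at 1035, 372, 52.7, 30.3 and 28.5 CPM. The high mobility group gene Hmgb4 stood high over more of the classes, at 6271, 5838, 2138, 446 and 187 CPM. H2al2a differed less, at 3011, 3586, 4264, 4051 and 2526 CPM, and so did Prm3, at 7168, 8532, 9789, 8923 and 5628 CPM.

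Further genes of chromatin were 2-fold higher in Tnp-rich cells, as were 38.9% of all genes. Phf7, a histone ubiquitin ligase with a role in histone removal, went from 1885 to 97.8 CPM between the end classes, and Cdyl, a chromodomain gene, from 719 to 16.0 CPM (log2 5.17 between the 659 and the 316 cells, 4.70 to 5.85). The linker histone H1fnt went from 2071 to 377 CPM. Cdyl was among the 12 genes of largest ratio, with Cntn1 (228 to 5.34 CPM), Efcab3 (285 to 3.56 CPM), Fam71f1 (953 to 10.7 CPM) and Iqcf6 (335 to 7.11 CPM). The low ends rest on few UMIs. All 316 cells under 5% together held 6 of Cntn1, 8 of Efcab3, 32 of Fam71f1, 11 of Iqcf6 and 27 of Cdyl, so the order of these ratios is uncertain. Of these genes only Fam71f1, at 22.5 CPM, was above the minimum of 20 CPM in the 316 cells. The others entered only through the Tnp-rich cells, so their direction was fixed.

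Genes of the sperm tail went both ways. Of 19 genes of the outer dense fibres and the fibrous sheath, 5 were 2-fold higher than in neighbours and 3 lower (all genes, 6.32% and 40.3%). Within the cells 9 were 2-fold higher in the Tnp-rich, near the 38.9% of all genes, and 7 in the Tnp-poor (all genes, 8.54%). Akap4 stood at 1173, 2067, 3458, 4192 and 4509 CPM from the richest class to the poorest. Odf2 stood at 3769, 5204, 6435, 7698 and 8481 CPM, and Odf1, of the same fibres, at 475, 754, 830, 1015 and 1297 CPM. Akap3, which encodes a second scaffold of the fibrous sheath, had the opposite course, at 464, 73.9, 32.3, 31.4 and 17.8 CPM. The sperm sheath gene Ropn1l also stood higher in Tnp-rich cells, at 2180 CPM against 361 CPM in the poorest class, and was below its neighbours' level of 4070 CPM overall (1549 CPM).

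Of 14 genes of the mitochondrial sheath 2 were 2-fold higher than in neighbours, Smcp (8836 against 3872 CPM) and Spata18 (1363 against 583 CPM), and 9 were 2-fold lower, such as the cytochrome oxidase subunit Cox6b2 (194 against 888 CPM), where all genes gave 6.32% and 40.3%. Smcp stood at 6421, 9568, 11872, 14783 and 19262 CPM over the classes. Spata19, needed for the sheath's mitochondria, went the other way, from 2717 to 135 CPM.

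Genes of the axoneme, the microtubule core of the tail, were mostly lower. Of 35 compared 26 were 2-fold lower than in neighbours and none higher (median -1.68, against 40.3%, 6.32% and -0.62 for all genes), with the tektin gene Tekt4 at log2 -3.06 and Cfap45, of the inner wall of the microtubules, at -3.29. Tekt4 and Cfap45 were above the minimum for a comparison in transcript-rich ESs. Many of the 26, such as Dnah3, Tekt3 and Ccdc39, were under it, which fixed their direction and bears on the list median. Spag17 (284 against 275 CPM) and Cfap69 (219 against 206 CPM) were close to equal. Of 13 genes of sperm ion channels and transport 10 were 2-fold lower (40.3% of all genes were), among them Catsper3 (10.8 against 103 CPM). Of these 10 only Catsper4, Catsperz and Efcab9 were above the minimum for a comparison in transcript-rich ESs. The others, with Catsper3, entered only through neighbours, which fixed their direction. The sperm sodium pump subunit Atp1a4 was the highest ratio, at 217 against 130 CPM.

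Of 32 acrosome genes none was 2-fold higher than in neighbours and 23 were 2-fold lower, with a median of -2.14, against 6.32%, 40.3% and -0.62 for all genes. The genes of most UMIs did not share this: Crisp2, of the acrosome and outer dense fibres, stood at 4127 against 2337 CPM, and Iqcf1 at 2959 against 1891 CPM. Within the cells Iqcf1 went from 3883 to 141 CPM and Crisp2 from 3325 to 6864 CPM between the richest and the poorest class. The fusion protein gene Izumo1 stood at 18.5 CPM against 129 CPM in neighbours. Its level in transcript-rich ESs was under the minimum for a comparison, which fixed its direction.

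The manchette is a transient skirt of microtubules that shapes the nucleus. Of its 26 genes and others of head shaping, 3 were 2-fold higher than in neighbours and 11 lower, against 6.32% and 40.3% of all genes. Meig1, which carries cargo along the manchette, stood at 7593 against 7208 CPM, and at 54.2 against 120 UMIs per cell. It went through 10088, 6382, 2661, 1337 and 779 CPM over the classes. Spag4, a SUN domain gene of the nuclear envelope, went from 758 to 33.8 CPM. Spem1, needed for the removal of cytoplasm, had the opposite course, from 634 to 2031 CPM, and so had Tbc1d20, from 434 to 1768 CPM.

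Glycolysis in sperm is bound to the fibrous sheath. Of 15 glycolytic genes 2 were 2-fold higher than in neighbours, Gapdhs (2972 against 1191 CPM) and Gpi1 (716 against 316 CPM), 2 were lower, and the list median was 0.71 (all genes, 6.32%, 40.3% and -0.62). Gapdhs, the sperm form of glyceraldehyde phosphate dehydrogenase, stood at 2194, 3336, 4139, 4968 and 5615 CPM over the classes. Hk1, hexokinase, stood at 251, 399, 547, 764 and 1410 CPM, the largest ratio toward Tnp-poor cells among the genes averaging 100 CPM or more (log2 -2.02, -2.13 to -1.92). Ldhc, the lactate dehydrogenase of germ cells, went the other way, from 4172 to 1092 CPM. Phkg2, the testis form of the phosphorylase kinase catalytic subunit, also stood higher in Tnp-poor cells, at 2154 CPM against 565 CPM.

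Kinases of the testis-specific serine family (TSSK) parted too. Tssk6 went from 2181 to 6252 CPM and Tssk3 from 862 to 2202 CPM between the richest and the poorest class, while Tssk1 went from 686 to 28.5 CPM. Tssk2 stood at 1871 and 1535 CPM at the ends and at 1017 CPM between. Among kinase and phosphatase genes, Prkar2a, a regulatory subunit of protein kinase A, was the only one of 17 that was 2-fold higher than in neighbours (883 against 324 CPM), and 6 were lower, both near the shares of all genes (6.32% and 40.3%).

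**Figure D5:**
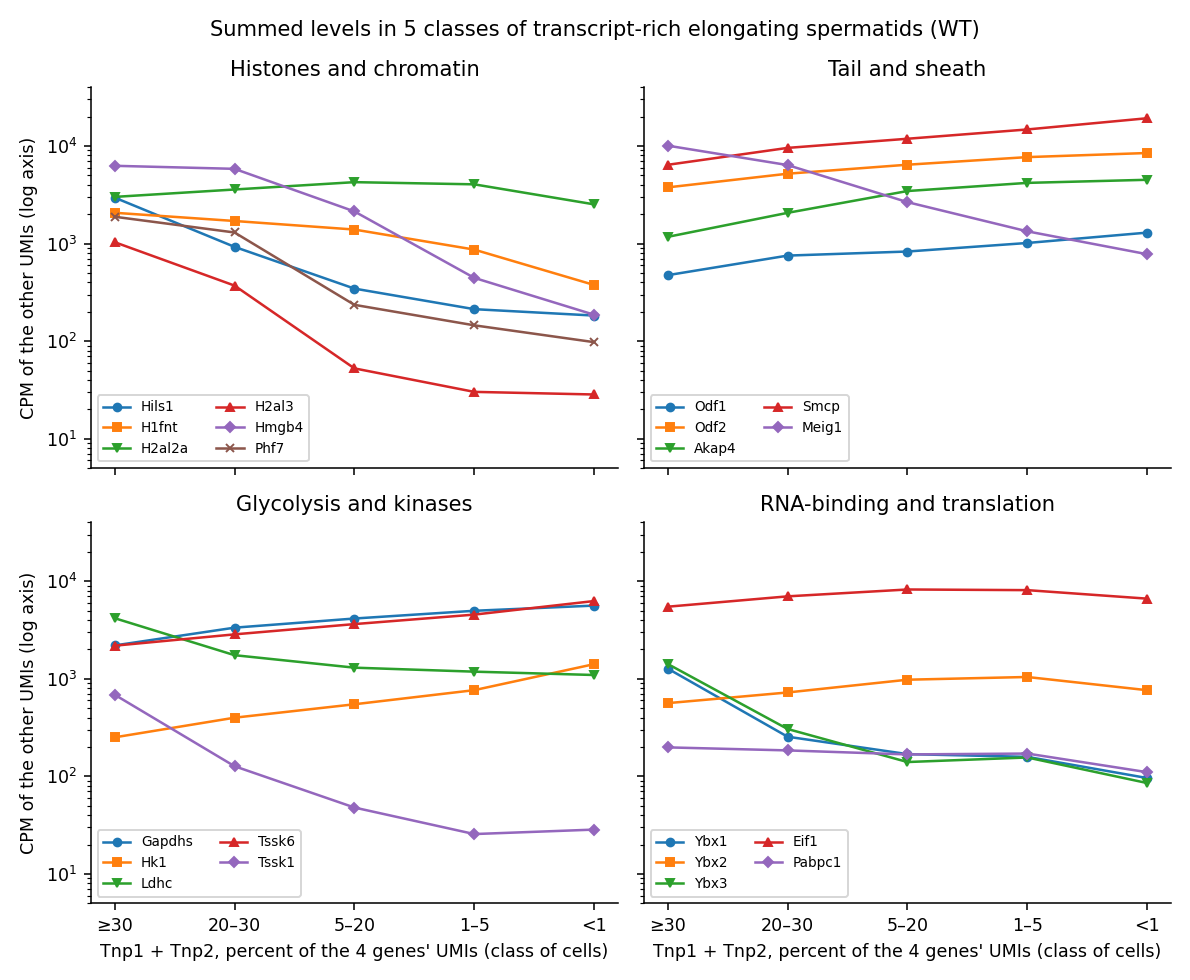
Levels of named genes (CPM of UMIs other than the 4 genes, logarithmic axis) in the 5 classes of WT transcript-rich ESs by Tnp share, summed over the cells of each class. Hils1, H2al3, Hmgb4, Phf7, Meig1, Tssk1, Ybx1 and Ybx3 are lower in Tnp-poor cells, whereas Smcp, Akap4, Odf2, Gapdhs, Hk1 and Tssk6 are higher there.

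Genes of mRNA storage and the chromatoid body, the RNA granule of RSs, were mostly low. Of 24 compared 15 were 2-fold lower than in neighbours and none 2-fold higher (median -1.70, against 40.3%, 6.32% and -0.62 for all genes). Among the lower were the poly(A)-binding protein gene Pabpc1 (186 against 1246 CPM) and the Piwi gene Piwil1 (4.66 CPM). Piwil1 was under the minimum for a comparison in transcript-rich ESs, as were some others of the 15, such as Ddx4 and Tdrd6. This fixed their direction. The Y-box genes, whose proteins bind stored mRNAs, differed among themselves. Ybx1 stood at 1271, 255, 169, 158 and 96.0 CPM over the classes, and Ybx3 at 1417, 306, 140, 156 and 85.4 CPM. Ybx2, the germ cell member, stood at 562, 723, 977, 1042 and 763 CPM. Papolb, the cytoplasmic poly(A) polymerase of spermatids, went from 252 to 8.89 CPM.

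Of 37 translation factor genes 2 were 2-fold higher than in neighbours, Eif1 (6224 against 2924 CPM) and Eif4h (1392 against 463 CPM, log2 1.58), and 7 were lower. Over all genes 6.32% were higher and 40.3% lower. Eif1, which takes part in start codon choice, stood at 5470, 6983, 8212, 8086 and 6615 CPM over the classes. Per cell it went from 49.9 UMIs in the richest class to 29.8 in the poorest. Its close relative Eif1b went from 578 to 42.7 CPM.

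Ribosomal protein genes held 5.97% of the UMIs beside the 4, against 4.86% in neighbours. Within the cells 29 of 70 were 2-fold higher in Tnp-rich and 8 in Tnp-poor cells, near the shares of all genes (38.9% and 8.54%), and their log2 ratios ran from -1.29 to 3.56. Rps20 stood at 4146, 6094, 7615, 8277 and 7202 CPM, and Rpl41 at 3429, 5080, 6639, 7625 and 8892 CPM. Rpl13 went from 2268 to 146 CPM, Rps7 from 1168 to 81.8 CPM and Rplp0 from 1541 to 123 CPM, a choice of examples made after their values were seen. Ribosomal protein genes have many near-identical copies in the genome, so their single levels are uncertain.

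Of 41 genes of ubiquitination, autophagy and the removal of cytoplasm, 4 were 2-fold higher than in neighbours and 9 lower (all genes, 6.32% and 40.3%). Their median log2 ratio was -0.17, against -0.62 for all genes and -0.05 for genes averaging at least 100 CPM. The autophagy gene Gabarapl1 stood at 3467 against 1558 CPM. The ubiquitin-conjugating gene Ube2n went from 2089 to 6081 CPM between the richest and the poorest class, and the autophagy receptor Nbr1 from 361 to 1640 CPM, while the testis ubiquitin ligase Rnf151 went from 1490 to 151 CPM. In polyamine control, Oaz3, the antizyme of spermatids, stood at 2312 against 1205 CPM and went from 1666 to 5297 CPM, and Azin2, an antizyme inhibitor, stood at 463 against 165 CPM (log2 1.48).

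Of 14 genes of spermatid transcription regulators 7 were 2-fold lower than in neighbours and 1 higher, near the shares of all genes (40.3% and 6.32%). Crem stood at 91.4 against 296 CPM. The one 2-fold higher was Spz1, a basic helix-loop-helix gene, at 2853 against 1085 CPM, and it went through 1966, 3092, 3956, 5004 and 6816 CPM over the classes. Fhl5, a coactivator of CREM, went the other way, from 810 to 48.0 CPM, as did Sox30 from 164 to 14.2 CPM.

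Where the mean was 100 CPM or more, the 12 genes highest against neighbours were led by Apoe, the apolipoprotein of lipid transport, at 280 against 51.1 CPM (log2 2.43, 2.25 to 2.67). It was followed by Cyp2a12 (238 against 52.4 CPM) and 1700084D21Rik (623 against 141 CPM). Apoe gave 2710 UMIs and stood at 211, 306, 321, 447 and 644 CPM over the classes, whereas Apoc1, which lies beside it on chromosome 7, gave 26 UMIs (chosen after its value was seen). Cd3d, known from T cells, stood at 218 against 54.4 CPM. The kallikrein genes Klk1b8 (1457 against 396 CPM), Klk1b9 and Klk1b26 are near-identical copies, so reads could be split among them. The lowest was Hacd2, of fatty acid elongation, at 12.1 against 236 CPM (log2 -4.18).

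An RNA antisense to Tnp1 was among the abundant genes that stood higher in Tnp-poor cells. The gene 1700027A15Rik, at chr1:72984844-73025507 on the plus strand (GENCODE M21, GRCm38, annotated as antisense), spans Tnp1, which lies at chr1:73015074-73015909 on the minus strand. It was the 7th gene by UMIs beside the 4 and stood at 6989 against 2165 CPM in neighbours (log2 1.69, 1.66 to 1.72). Over the classes it stood at 4907, 7069, 9626, 12103 and 17325 CPM. Per cell this was 44.8 UMIs in the class richest in Tnp and 77.9 in the poorest, where Tnp1 itself gave 2.39. The low Tnp1 there is set by the sorting on Tnp share. Other abundant genes rose in a like way, such as Dbil5 (77.8 to 129 UMIs per cell) and Hspb9 (28.9 to 47.9). Others, such as Meig1 and Hmgb4, fell. A relation between the antisense RNA and Tnp1 was not tested.

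CPM in the classes rest on unequal totals per cell. UMIs beside the 4 genes averaged 9127 per cell at a Tnp share of 30% or more and 4497 under 5%. On the scale of mean UMIs per cell, with 0.01 added, 2212 of the 3503 genes were at least 2-fold higher in the Tnp-rich cells, none was 2-fold higher in the 316 Tnp-poor cells, and 299 were higher there by any amount. Odf2 was near constant on this scale, at 34.4 and 38.1 UMIs per cell in the richest and the poorest class. Tssk6 stood at 19.9 and 28.1, Smcp at 58.6 and 86.6, Akap4 at 10.7 and 20.3, and Hk1 at 2.29 and 6.34 UMIs per cell. Genes lower in Tnp-poor cells were lower on this scale too: Hils1 stood at 27.0 and 0.824, Meig1 at 92.1 and 3.50, and Ybx1 at 11.6 and 0.432 UMIs per cell. In droplets, the RNA content of a cell and the share of it that is captured cannot be told apart.

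The differences by Tnp share were looked for in the 726 WT barcodes of 500 to under 4000 UMIs, which had no part in the ratios above. They come from the same library and tissue, were chosen by the same limit on the same genes, and were split by the same Tnp share. Their values are therefore a further description and no independent support. There the 114 barcodes at 30% or more had a median of 2200 UMIs and the 521 under 5% a median of 2629. All of the 12 genes highest with Tnp were at least 2-fold higher in the Tnp-rich barcodes, with log2 ratios from 2.32 to 5.61, and all of the 12 genes highest without Tnp at least 2-fold lower, from -2.26 to -1.05. Over all genes, 1193 of the 1363 genes 2-fold higher in Tnp-rich cells (87.5%) and 223 of the 299 genes 2-fold lower (74.6%) passed the same limit in the same direction in these barcodes. Of all 3503 genes, 42.3% were 2-fold higher and 11.3% 2-fold lower there.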

How the data were processed

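The authors deposited raw UMI counts of 31053 genes in every barcode of 1 droplet library each of WT, KO and KI, aligned to mm10 with Cell Ranger (version 2.1.1 in the submitters' processing notes, 4 in the file headers), not normalized or called as cells. Filters and the 20% limit are those given above. UMIs were summed over cells with Python 3.11.15, numpy 2.4.6, scipy 1.17.1 and pandas 2.3.3, scaled to CPM without the 4 genes and compared as log2 ratios with 1 CPM added for genes of at least 20 CPM on average, where 2-fold counts as called. Thinning drew 4000 UMIs per cell. The sums were tested on simulated data. Doublets were kept, and Scrublet (scanpy 1.11.5) marked 20 of the 1353 cells (1.48%), 2.61% of all WT cells, 1.94% in KO and 0.746% in KI. Intervals are exact, at 95%.

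The cells and gene lists were chosen with earlier results of these data known, and the classes by Tnp share after seeing the data. Named genes are the 4 genes, the 20 with most UMIs, the 12 at each end of either comparison at a mean of at least 100 CPM, up to 8 of highest CPM in each list and exceptions to a list. Spermatid genes named beside these were chosen after their values were seen.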

Additional observations from a re-analysis of the deposited data

How the results depend on the processing

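No paired analysis was possible because each genotype has 1 library. The count of WT cells stayed within 1.5 times of 1353 under all alternatives except a minimum of 8000 UMIs (688). KO gave 0 cells in every setting run. KI gave 1 cell at a limit of 25% and 1 at 8000 UMIs. Genes higher than in neighbours went from 297 to 79 at a limit of 25%, 103 when scaled to all UMIs, 978 by the median ratio, 510 without a CPM minimum and 614 against WT cells at 2% to under 10%. Genes lower went from 1897 to 1157 by the median ratio, 7074 without a minimum and 445 at 100 CPM. In Tnp-rich cells the higher genes went from 1363 to 4157 without a minimum and 493 at 100 CPM, and the lower genes from 299 to 799 by the median ratio, 874 without a minimum and 123 when the cells were split at 20%. As mean UMIs per cell, genes higher and lower than in neighbours numbered 8 and 3477, and in Tnp-rich cells 2212 and 0. These comparisons by Tnp share, the scale per cell, and leaving out cells above 30000 UMIs or neighbours poor in Tnp, were added after seeing the data. The median of 1092 genes (1079 to 1100 by the ranks of the cells) became 1103 at a limit of 15%, 1174.5 at 8000 UMIs and 1635 without thinning. With 1 library per genotype, mouse, preparation and genotype cannot be told apart.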
